A study of Mus musculus with 8 samples.

Results

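The genes that coat lipid droplets and govern their breakdown were examined in the livers of mice that lack hepatic pyruvate carboxylase. They are the CIDE family Cidea, Cideb and Cidec, the perilipins Plin2, Plin4 and Plin5, the fat storage-inducing transmembrane proteins Fitm1 and Fitm2, the lipase inhibitor G0s2, and Pnpla2, which encodes adipose triglyceride lipase. They were taken by name, 10 of the 35275 genes in the count table. The rule used no values, but the genes were chosen with earlier results of these data known. The shares called below are therefore not those of a blind list. The mutant group, Pcx L-/-, carried a floxed exon 10 of Pcx deleted by Cre under the Albumin promoter, which limits the deletion to hepatocytes. The control group, called WT in the labels, was Pcx f/f littermates that carry the same floxed alleles without Cre, so neither group had an unmodified Pcx locus. All were C57BL/6 males 9 weeks old, killed after a 24 h fast that began in the afternoon, with 4 mice and 4 libraries of total liver RNA in each group.

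Triglyceride is stored in the liver in droplets with a phospholipid surface on which proteins sit. FIT proteins help the droplet to leave the endoplasmic reticulum membrane, perilipins cover its surface and limit the access of lipases, and CIDE proteins gather at contacts between droplets and pass lipid from the smaller to the larger. Adipose triglyceride lipase takes the first step in breaking triglyceride down, with Abhd5 as its activator and G0s2 as its inhibitor. During a fast, fatty acids from adipose tissue reach the liver faster than they are oxidised, and part of them passes through these droplets.

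Reads counted on genes came to between 12016242 and 20023108 per library. Values are counts per million-read library (CPM) after TMM scaling, which adjusts each library for its size and its make-up, and groups were compared with edgeR's quasi-likelihood test, adjusted by the Benjamini-Hochberg method over all 13168 genes that passed a filter on low counts. A gene was called at an adjusted p under 0.05. Pcx itself stood at 40.1 ± 5.29 CPM (SD, n = 4) in Pcx L-/- and at 1116 ± 191 CPM (SD, n = 4) in control liver, which checks the labels. Because this is bulk liver RNA, fewer cells of a type and less RNA per cell cannot be told apart. Mouse numbers in the labels fall in the 500s (2 control, 1 Pcx L-/-) and the 800s (2 control, 3 Pcx L-/-), and for the droplet genes values within each series are given beside the pooled ones.

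Of the 10 genes, 9 passed the filter, and 3 of them were higher in Pcx L-/- liver: Cidec, Plin2 and G0s2. None was called lower, and 6 were not called. Across all genes tested, 14.1% were called higher and 13.5% lower. The median log2 fold change was 0.17 over the 9 genes and -0.01 over all genes tested. In 4 of the 9, Cidec, Plin2, G0s2 and Pnpla2, every Pcx L-/- library lay above every control library, an arrangement seen in 15.1% of all genes tested. Among the 1855 genes called higher, Cidec ranked 20, G0s2 ranked 167 and Plin2 ranked 214 by log2 fold change.

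**Figure D1:**
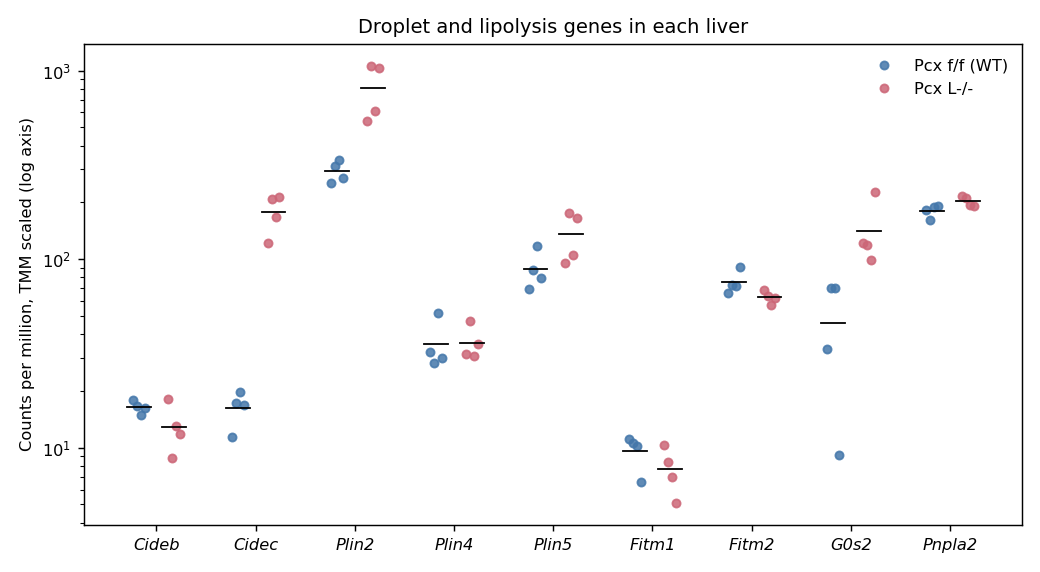
TMM-scaled CPM on a log axis for the 9 genes that passed the filter, with 1 point per mouse (4 Pcx f/f in blue, 4 Pcx L-/- in red) and a black line at each group mean. The groups stand clear of each other for Cidec, Plin2 and G0s2 and just apart for Pnpla2, and they overlap for the other 5 genes.

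Cidec, also known as Fsp27, drives the fusion of droplets and is abundant in fat, while lean liver holds little of it. Its identifier is ENSMUSG00000030278, at chromosome 6, 113424634 to 113435760 (GRCm38, minus strand). Control replicates 1 to 4 held 11.4, 17.3, 19.7 and 16.8 CPM of Cidec. Pcx L-/- replicates 1 to 4 held 122, 209, 167 and 213 CPM. The lowest mutant was thus several times above the highest control, and the spread within each group was small beside the gap. Cidec was 10.9-fold higher, a log2 fold change of 3.45 (SE 0.22, edgeR adjusted p = 2.18e-05). It was 3.09 among mice numbered in the 500s and 3.43 among those in the 800s, as the log2 ratio of mean CPM. It lay between 3.30 and 3.75 under the 18 other settings that were run and was called in each of them.

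Cideb, the CIDE protein that hepatocytes normally make, was not called. Controls held 18.0, 16.7, 14.9 and 16.3 CPM of Cideb, and Pcx L-/- livers held 18.2, 8.77, 13.0 and 11.8 CPM. Replicate 1 of the mutants lay just above the control range and the other 3 lay below it. Its log2 fold change was -0.35 (SE 0.19, 95% interval -0.77 to 0.07, edgeR adjusted p = 0.200), and it became -0.56 with an adjusted p of 0.0142 when Pcx L-/- replicate 1 was left out. Of the 1488 annotated exon bases of Cideb, 1136 are shared with Nop9 on the opposite strand. The sources used here do not say whether counting used strand or how reads lying on both genes were treated. Reads of the 2 genes may therefore not be separable, and the level of Cideb may be too high or too low. Cidea, which is typical of brown fat and appears in fatty liver, was close to absent, with 1 read over all controls and 3 over all Pcx L-/- libraries, and was not tested. A level of 3 reads over the control group would be 0.0456 CPM.

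Cidec and Cideb were then set against each other within a liver, where the overlap with Nop9 may have raised or lowered the values of Cideb. Per unit of gene length, as FPKM, Cidec stood at 0.450 to 0.936 times the level of Cideb in controls and at 4.75 to 16.9 times in Pcx L-/- livers. The mean log2 ratio of Cidec to Cideb was -0.54 ± 0.44 (SD, n = 4) in controls and 3.30 ± 0.79 (SD, n = 4) in Pcx L-/- liver, a difference of 3.83 (exact two-sided permutation test, p = 0.0286). This is the smallest p that 4 mice against 4 can give, and it is 0.0286 after adjustment over the 5 ratios compared. Each of the 5 ratios holds Cidec, Plin2 or G0s2, which already separated the groups by themselves in these libraries. The p-values of the ratios are therefore not independent of the results for those genes. Such a ratio does not depend on how libraries are scaled.

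Plin2 coats droplets in most tissues and is the main perilipin of hepatocytes. It is listed as ENSMUSG00000028494, on chromosome 4 from 86648386 to 86670060 of GRCm38, minus strand. The 4 controls held 255, 310, 336 and 268 CPM of Plin2. The 4 Pcx L-/- livers held 541, 1060, 607 and 1034 CPM. All mutants exceeded all controls, and replicates 2 and 4 of the mutants stood well above replicates 1 and 3. Plin2 was 2.77-fold higher, a log2 fold change of 1.47 (SE 0.23, edgeR adjusted p = 0.00152). It was 0.94 within the 500s and 1.58 within the 800s, and it stayed between 1.32 and 1.77 and called under the 18 other settings.

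Plin5, the perilipin of oxidative tissues that tethers droplets to mitochondria, held 69.2, 87.3, 117 and 79.2 CPM in controls and 95.5, 175, 105 and 166 CPM in Pcx L-/- livers. Replicates 1 and 3 of the mutants lay inside the control range, and replicates 2 and 4 lay above it. The order of the 4 mutants, 2 then 4 then 3 then 1, was that of Plin2. For Plin5 the log2 fold change was 0.62 (SE 0.22, 95% interval 0.13 to 1.10) and missed the threshold (edgeR adjusted p = 0.0594). It was called higher in 7 of 18 other settings, DESeq2 among them (adjusted p = 0.0349). Within the 500s the log2 ratio of means was 0.29, and within the 800s it was 0.60.

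Plin4, a perilipin of fat and muscle, held 32.1, 28.2, 51.8 and 29.8 CPM in controls and 31.4, 46.7, 30.6 and 35.5 CPM in Pcx L-/- livers. The groups overlapped over most of their range. The log2 fold change was 0.02 (SE 0.20, 95% interval -0.42 to 0.47, edgeR adjusted p = 0.950), so a change of either sign up to the ends of that interval is compatible with these libraries. Ratios between the perilipins differed between genotypes. Plin2 stood at 3.01 to 3.87 times the FPKM of Plin5 in controls and at 5.96 to 6.54 times in Pcx L-/- livers, and the log2 ratio differed by 0.82 (exact permutation p = 0.0286, 4 against 4). The log2 ratio of Plin4 to Plin2 was -4.69 ± 0.32 in controls and -6.06 ± 0.32 in Pcx L-/- liver (SD, n = 4 each), a difference of -1.37 (exact permutation p = 0.0286). Cidec also gained on Plin2. Its FPKM was 0.0492 to 0.0687 times that of Plin2 in controls and 0.217 to 0.302 times in mutants, a difference of 2.03 in log2 ratio (exact permutation p = 0.0286).

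The FIT genes showed no call. Fitm1, which is typical of muscle, held 11.2, 10.5, 10.2 and 6.60 CPM in controls and 10.3, 8.41, 6.96 and 5.09 CPM in Pcx L-/- livers, with overlap and a log2 fold change of -0.33 (SE 0.23, edgeR adjusted p = 0.306). Fitm2, the widely expressed family member, held 66.3, 72.6, 71.7 and 91.4 CPM in controls and 68.9, 63.9, 57.1 and 62.1 CPM in mutants. Only replicate 1 of the mutants reached into the control range. The log2 fold change of Fitm2 was -0.26 (SE 0.12, edgeR adjusted p = 0.131), and it turned to 0.03 when libraries were scaled by their size alone. Fitm1 shares 109 exon bases and Fitm2 shares 227 with annotated antisense genes.

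G0s2 binds adipose triglyceride lipase and blocks it. It is listed as ENSMUSG00000009633, on chromosome 1 from 193272161 to 193273217 of GRCm38, minus strand, inside the span of Lamb3 but with 0 shared exon bases. Controls held 33.4, 70.2, 70.1 and 9.20 CPM of G0s2. Pcx L-/- livers held 122, 119, 99.3 and 227 CPM. All mutants lay above all controls, but both groups were wide, with replicate 4 low among controls and replicate 4 high among mutants. G0s2 was 3.09-fold higher, a log2 fold change of 1.62 (SE 0.49, edgeR adjusted p = 0.0297) with a 95% interval of 0.55 to 2.70. The call was lost without Pcx L-/- replicate 2 (adjusted p = 0.0503), without Pcx L-/- replicate 4 (0.0969) or without control replicate 1 (0.0833), with log2 fold changes of 1.70, 1.30 and 1.50 in turn. Without the low control replicate 4 it was 1.29 and still called (adjusted p = 0.0182). Within the 500s the log2 ratio of means was 1.24 and within the 800s 1.90.

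Pnpla2, the lipase that G0s2 inhibits, held 182, 161, 190 and 192 CPM in controls and 217, 211, 194 and 192 CPM in Pcx L-/- livers. The lowest mutant exceeded the highest control by less than 1 CPM. Its log2 fold change was 0.17 (SE 0.11, 95% interval -0.07 to 0.41, edgeR adjusted p = 0.276). Pnpla2 was called higher, at 0.45 to 0.46, only in the 4 settings that scale by library size alone or use FPKM, under which the log2 fold changes of all 13168 genes had a median of 0.18 to 0.28 (0.06 over the 21737 genes above 0). G0s2 amounted to 0.150 to 1.36 times the FPKM of Pnpla2 in controls and to 1.60 to 3.68 times in Pcx L-/- livers. The mean log2 ratio of G0s2 to Pnpla2 was -0.72 ± 1.45 in controls and 1.05 ± 0.56 in mutants (SD, n = 4 each), a difference of 1.77 (exact permutation p = 0.0286). Without control replicate 4 that difference was 1.10.

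**Figure D2:**
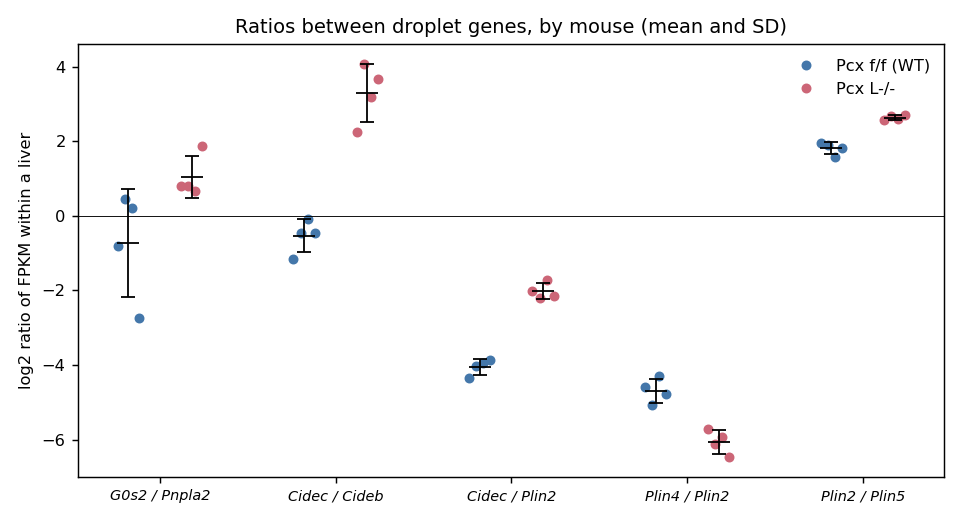
The log2 ratio of FPKM between pairs of genes within each liver, with 1 point per mouse (4 Pcx f/f in blue, 4 Pcx L-/- in red), and the mean with SD in black. In each of the 5 pairs no mutant overlaps a control, and the widest groups are controls in the ratio of G0s2 to Pnpla2 and mutants in the ratio of Cidec to Cideb.

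The summed level of the 10 genes was 346 ± 67.9 FPKM in controls and 990 ± 303 FPKM in Pcx L-/- liver (SD, n = 4 each), and the highest control (418) stayed below the lowest mutant (660). FPKM were scaled by library size alone. In controls the order of FPKM levels was Plin2, Pnpla2, G0s2, Plin5, Fitm2, Cideb, Fitm1, Cidec, Plin4 and Cidea. Neighbours overlapped between Pnpla2 and G0s2, between G0s2 and Plin5, between Fitm1 and Cidec, and between Cidec and Plin4. In Pcx L-/- liver Cidec moved from place 8 to place 3, with 116 ± 34.1 FPKM against 8.58 ± 1.88 FPKM in controls, and each of the first 5 genes overlapped its neighbour. As a share of the sum, Cidec went from 2.49% ± 0.42 to 11.7% ± 1.5 and Plin2 from 40.9% ± 2.06 to 47.6% ± 5.16. Pnpla2 went from 18.5% ± 3.67 to 9.23% ± 2.57 and Plin5 from 11.6% ± 1.25 to 7.63% ± 0.64 (mean ± SD over 4 mice, described without a test).

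**Figure D3:**
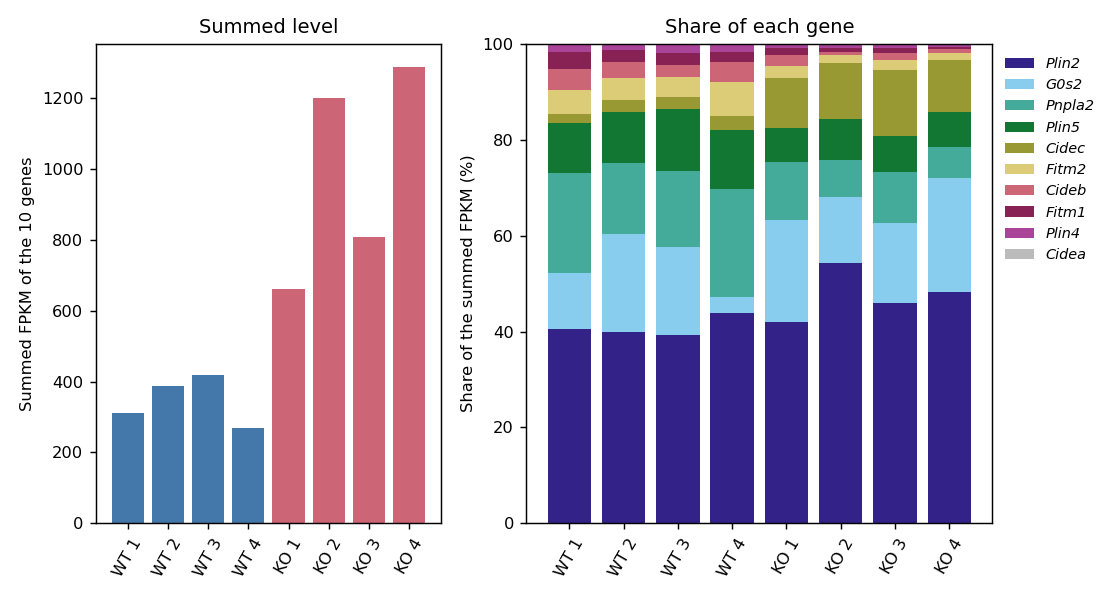
Left, the summed FPKM of the 10 genes in each of 4 control (WT) and 4 Pcx L-/- (KO) livers. Right, the share of that sum in percent taken by each gene in the same livers, where the Cidec band widens from 1.99 to 3.01% in controls to 10.4 to 13.8% in mutants and the Pnpla2 band narrows.

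Pcx L-/- replicate 1 held the least Cidec, Plin2 and Plin5 of its group, while replicates 2 and 4 held the most. Replicate 4 led in Cidec and replicate 2 in Plin2 and Plin5. Controls had the order 3, 2, 4 and 1 from high to low in all of Cidec, Plin2 and Plin5. G0s2 had other orders, 4, 1, 2 and 3 from high to low among mutants and 2, 3, 1 and 4 among controls. Pcx L-/- replicate 1 is the only mutant numbered in the 500s. It also held 1618 CPM of the haemoglobin gene Hba-a1, against 137 to 350 CPM in the other mutants and 88.2 to 351 CPM in controls. Over 4 red blood cell markers, 0 were called and sums ran from 546 to 5293 FPKM in mutants and from 295 to 1212 FPKM in controls, and the part of blood content in the lower values of replicate 1 was not tested. Among the uncalled genes the log2 ratio of mean CPM in the 500s and then the 800s was 0.07 and -0.48 for Cideb, 0.06 and -0.12 for Plin4, -0.07 and -0.30 for Fitm1, -0.01 and -0.42 for Fitm2, and 0.34 and 0.06 for Pnpla2. Without Pcx L-/- replicate 1 the log2 fold change was 3.59 for Cidec and 1.62 for Plin2.

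Several of these genes are known from fat or muscle, so markers of other cells were read beside them. Sums are in FPKM, scaled by library size alone, while calls and log2 fold changes used TMM. The median log2 fold change over all tested genes was 0.28 with library size alone and -0.005 with TMM, so the 2 scales can differ in direction. Of 6 white adipocyte markers, Lep and Retn had no reads, Adipoq had 4 reads in all, none of them in a mutant, and Cfd had 29. Of the 2 that were tested, Fabp4 was not called and Adrb3 was lower in Pcx L-/- liver (log2 fold change -2.10, edgeR adjusted p = 0.000968). The summed FPKM of that list ran from 11.7 to 14.4 in Pcx L-/- and from 6.08 to 16.8 in control livers. Of 4 brown adipocyte markers, Ucp1 had no reads and 0 of 3 tested were called, with sums of 31.8 to 54.5 FPKM in mutants and 23.4 to 38.1 FPKM in controls. Most of these sums came from Elovl3, at 31.7 ± 11.2 FPKM in mutants and 23.7 ± 7.03 FPKM in controls (SD, n = 4 each). Of 6 muscle markers, 1 was tested and not called, with sums of 0.867 to 1.67 and 0.717 to 0.978 FPKM. Stellate cells, which also carry Plin2, gave 0 of 5 called and sums of 61.9 to 147 FPKM in mutants and 63.2 to 147 FPKM in controls. Macrophages gave 1 of 5 called, Cd68 (higher, log2 fold change 0.86, edgeR adjusted p = 0.0289), and sums of 66.4 to 97.3 and 57.8 to 79.8 FPKM. The groups overlapped in Cd68, and 3 of the 8 fits that left out 1 mouse kept the call. Endothelial markers gave 0 of 4 called, with sums of 35.7 to 53.3 FPKM in mutants and 36.5 to 50.04 FPKM in controls. Cholangiocyte markers gave 1 of 4 called, Sox9 (lower, log2 fold change -0.79, edgeR adjusted p = 0.0226, no overlap), with sums of 2.02 to 2.55 and 1.99 to 3.42 FPKM. Markers of hepatocytes, the labelled tissue's main cell, were abundant throughout, but their summed FPKM ran from 30580 to 38990 in mutants and from 43040 to 47010 in controls without overlap, and 1 of 5, Apoa1, was called lower (log2 fold change -1.03, edgeR adjusted p = 0.00400). Most of that sum was Alb, at 25860 ± 2288 FPKM in mutants and 33040 ± 1588 FPKM in controls (SD, n = 4 each). Alb had no overlap in CPM but was not called (log2 fold change -0.63, edgeR adjusted p = 0.053). Ttr, Cps1 and Serpina1c overlapped between groups and were not called. The part of these other cells in the values of Plin2 and Cidec was not tested.

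The wider pathway was read from 29 further genes of the droplet surface, of triglyceride synthesis at the droplet, of lipolysis and of its transcriptional control. Of these, 27 were tested, 3 were higher, 6 were lower and 18 were not called, beside 14.1% and 13.5% of all genes, and the median log2 fold change was -0.07. The counts depend on scaling. They became 9 higher and 2 lower when libraries were scaled by size alone, which also turned the split of all called genes from 51.1% to 81.8% higher.

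On the droplet surface, Mettl7b (a droplet-associated methyltransferase-like protein) held 542 ± 69.6 CPM in controls and 1068 ± 111 CPM in Pcx L-/- liver (SD, n = 4 each). It was higher by 0.98 on the log2 scale (SE 0.14, edgeR adjusted p = 0.00123), with no overlap. Hsd17b11, a short-chain dehydrogenase of the surface, fell by 1.02 on the log2 scale (SE 0.17, edgeR adjusted p = 0.00240). Its mutant replicate 1 held 246 CPM and the other mutants 147 to 163 CPM, against 308 to 407 CPM in controls. Its liver-enriched relative Hsd17b13 had a log2 fold change of 0.39 and was not called (edgeR adjusted p = 0.0552). No mutant overlapped a control in Hsd17b13, and 6 of 18 other settings called it higher, DESeq2 among them (adjusted p = 0.0137). Ldah, a droplet-associated hydrolase, was lower at -0.38 (edgeR adjusted p = 0.0414), a call that 14 of 18 other settings did not keep. Plin3, the remaining perilipin of liver, had a log2 fold change of 0.29 and was not called (edgeR adjusted p = 0.0738). Its groups did not overlap, and 5 of 18 other settings called it higher, those using FPKM or library size alone among them. Plin1, the perilipin of fat cells, had 10 reads in all and was not tested.

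Of 7 genes of droplet formation and triglyceride synthesis none was called higher, and Pcyt1a, which supplies phosphatidylcholine to growing droplets, was lower at -0.35 (SE 0.11, edgeR adjusted p = 0.0354), a call that 12 of 18 other settings did not keep. Dgat2, which makes triglyceride at the droplet, held 579 ± 16.1 CPM in controls and 691 ± 50.6 CPM in mutants without overlap. Its log2 fold change of 0.26 was not called (edgeR adjusted p = 0.130), but 5 of 18 other settings called it higher, DESeq2 among them (adjusted p = 0.0271).

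Among the lipases and their regulators, the largest called difference was that of Ces1d, a carboxylesterase that mobilises stored triglyceride for lipoproteins. Controls held 684, 1007, 566 and 347 CPM of Ces1d and Pcx L-/- livers held 361, 145, 158 and 124 CPM. Ces1d was lower by a log2 fold change of -1.73 (SE 0.38, edgeR adjusted p = 0.00761), and mutant replicate 1 overlapped the lowest control. Mgll, which splits monoglyceride in the last step of lipolysis, was lower at -0.64 (edgeR adjusted p = 0.0476), a call that 12 of 18 other settings did not keep. Hilpda, a second inhibitor of adipose triglyceride lipase, was higher at 0.92 (SE 0.27, edgeR adjusted p = 0.0259) from a low level of 1.96 ± 0.55 CPM in controls (SD, n = 4), and 7 of 18 other settings did not keep the call. Abhd5, the lipase's activator, had a log2 fold change of 0.21 and was not called (edgeR adjusted p = 0.199). Pnpla3 had 59 reads in all and was not tested.

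Of the 4 transcription factors, Pparg, which governs droplet genes in fat cells and in fatty liver, was higher, with 9.53 ± 1.20 CPM in controls and 16.2 ± 3.01 CPM in mutants (log2 fold change 0.76, SE 0.16, edgeR adjusted p = 0.00578). Ppara, the fasting regulator of fatty acid oxidation, was lower, with 201 ± 17.6 CPM in controls and 140 ± 20.5 CPM in mutants (log2 fold change -0.52, SE 0.13, edgeR adjusted p = 0.0137), and 5 of 18 other settings did not keep that call. Creb3l3 (-0.19, edgeR adjusted p = 0.414) and Foxo1 (-0.40, edgeR adjusted p = 0.122) were not called.

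**Figure D4:**
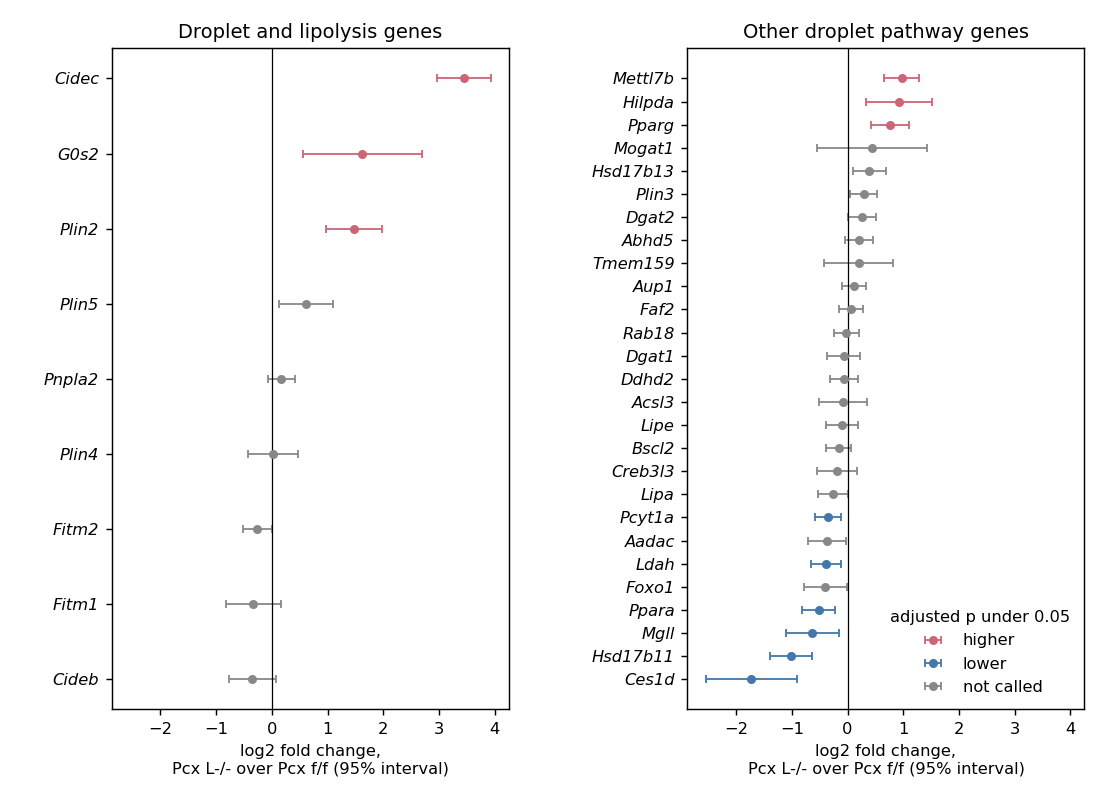
Log2 fold change of Pcx L-/- over Pcx f/f liver with its 95% interval from edgeR, for the 9 tested droplet and lipolysis genes (left) and 27 tested genes of the wider pathway (right), coloured by whether the adjusted p was under 0.05. Cidec at 3.45 stands farthest from 0 in the left panel and Ces1d at -1.73 in the right.

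The genes whose 8-library pattern lay nearest to each called gene were found by the root mean square difference in log2(CPM + 0.5), after each gene's control mean was set to 0. Nearest to Cidec were Cyb5r1 (0.33), Trib3 (0.52) and Apcs (0.53), and nearest to Plin2 were Dhrs13 (0.15), Arpp19 (0.16) and Chka (0.19). Nearest to G0s2 were Angptl8 (0.42), Inhbe (0.50) and Id1 (0.52). Of these, Angptl8 was itself not called (log2 fold change 1.08, edgeR adjusted p = 0.0901). Since only control means were set to 0, these distances take in the size of the genotype difference as well as the order of mice. Of the other droplet genes tested, the nearest to Plin2 was Plin5 at 0.59, the nearest to G0s2 was Plin2 at 0.88 and the nearest to Cidec was G0s2 at 1.36.

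The start regions of the 3 genes called higher are shown. Each is the 250 bases before an annotated start, 5′ to 3′ along the gene, from RefSeq on GRCm38.p6. RefSeq gives Cidec 2 starts, which gene counts do not separate. The regions are chr6:113435761-113436010 and chr6:113434765-113435014 for Cidec, chr4:86670060-86670309 for Plin2 and chr1:193273189-193273438 for G0s2, each on the minus strand. Capitals mark letters that matched AGGTCA, the core element of PPAR and other nuclear receptors, on either strand.
Cidec start 1: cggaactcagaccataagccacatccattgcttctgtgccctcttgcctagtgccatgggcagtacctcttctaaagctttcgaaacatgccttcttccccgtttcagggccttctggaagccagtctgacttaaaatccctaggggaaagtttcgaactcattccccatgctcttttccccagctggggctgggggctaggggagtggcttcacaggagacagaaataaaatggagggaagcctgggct
Cidec start 2: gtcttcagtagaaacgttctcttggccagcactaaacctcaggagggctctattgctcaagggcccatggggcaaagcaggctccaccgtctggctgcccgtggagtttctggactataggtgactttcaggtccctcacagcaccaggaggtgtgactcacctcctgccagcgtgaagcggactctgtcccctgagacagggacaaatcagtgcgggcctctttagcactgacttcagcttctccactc
Plin2: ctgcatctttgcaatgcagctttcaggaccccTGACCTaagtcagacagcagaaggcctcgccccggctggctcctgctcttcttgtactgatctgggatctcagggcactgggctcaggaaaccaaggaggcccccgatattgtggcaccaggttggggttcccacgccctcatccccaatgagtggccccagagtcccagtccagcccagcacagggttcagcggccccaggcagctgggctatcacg
G0s2: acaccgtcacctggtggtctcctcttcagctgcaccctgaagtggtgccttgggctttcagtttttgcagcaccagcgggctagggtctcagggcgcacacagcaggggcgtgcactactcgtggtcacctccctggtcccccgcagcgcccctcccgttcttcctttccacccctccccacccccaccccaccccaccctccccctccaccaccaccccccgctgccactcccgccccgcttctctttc

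AGGTCA was found on the reverse strand 218 bases before the Plin2 start and in neither Cidec window nor that of G0s2. Windows of 300 bases, which also hold the first 50 bases of the transcript, were searched for all genes, and 16.3% of 32851 held AGGTCA on either strand. Among 11 such windows of 9 of the 10 genes, 3 held it, 1 of Plin2 and both of Plin5. A pair of AGGTCA copies 1 base apart in the same direction with at most 1 mismatch, which always includes an exact AGGTCA, was in 0.554% of all windows. TGATGNAAT, the composite CEBP-ATF element, was in 0.965%, and TGACGTCA, the cAMP response element, in 1.79%. None of these 3 was in any of the 11 windows. A match is a description of the letters and not of binding.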

How the data were processed

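The authors deposited raw read counts per Ensembl gene and FPKM from the same libraries. Submitters' processing notes name STAR 2.5, HTSeq 0.6.1, DESeq2 and mm10, with no role or order, and no source used here states the use of strand. All 142384 deposited FPKM values above 0 equal count over gene length and library total within 1e-06. Symbols came from GENCODE M21 (34490 of 35275 identifiers). Genotype was the only term in edgeR 4.0.16 (R 4.3.3) with TMM, filterByExpr (minimum count 10, total 15) and Benjamini-Hochberg adjustment, with 6 residual degrees of freedom and a biological coefficient of variation of 0.181. Standard errors derive from the F statistic and are approximate. The 5 FPKM ratios used exact two-sided permutation tests. The genes and lists were chosen with earlier results of these data known, and the study itself singled out Cidec and Plin2 on these samples. The text names all 10 genes, genes of the pathway and marker lists, and 3 nearest patterns per called gene. Alternatives were DESeq2 1.42.0, limma 3.58.1 on FPKM, other scalings and filters, a replicate block, mouse number series, and each mouse left out. The edgeR, DESeq2 and limma steps were run on simulated counts with known folds, balanced up and down. A shift in library make-up was not simulated, and the ratios, patterns, Dixon ratios and promoter search were not tested in this way.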

Additional observations from a re-analysis of the deposited data

Results flagged for a closer look

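Within groups of 4 mice, 7 of 82 sets of values held 1 mouse far from the other 3 by Dixon's ratio of its gap to the whole range (past its 95% critical value), where chance gives about 1 in 20. Among controls, replicate 3 was high in Plin4 (ratio 0.837, 51.8 CPM against 28.2 to 32.1), replicate 1 low in Plin3 (0.938, 36.3 CPM against 41.4 to 41.7) and replicate 4 high in Ppara (0.898, 227 CPM against 191 to 195). Among Pcx L-/- mice, replicate 1 was high in Hsd17b11 (0.833, 246 CPM against 147 to 163), Dgat1 (0.975, 41.8 CPM against 30.3 to 30.6) and Ces1d (0.859, 361 CPM against 124 to 158). Pcx L-/- replicate 4 was high in the log2 ratio of G0s2 to Pnpla2 (0.884, a log2 ratio of 1.88 against 0.67 to 0.81). The cause of these gaps was not tested.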

How the results depend on the processing

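Of the 18 other settings, scaling by library size alone and limma on log2(FPKM + 1) or log2(FPKM + 0.1) each called 5 of the 10 genes higher, adding Plin5 and Pnpla2. Of the wider pathway these 3, and limma on log2(FPKM + 1) without a filter on low values, called 9 higher and 2 lower, and DESeq2 called 5 higher. Calls of lower among the 10 genes numbered 1 in the mice numbered in the 800s alone (Fitm2, a setting chosen after seeing the data). Leaving out 1 mouse at a time gave 2 to 4 of the 10 genes higher and 0 to 1 lower, 2 to 4 higher and 2 to 8 lower in the wider pathway, and 2109 to 4602 calls over all genes (2295 without Pcx L-/- replicate 2 and 2109 without replicate 4, beside 3632 with all mice).

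Replicate numbers are shared between groups, but deviations of same-numbered mice were only weakly correlated, with mixed signs (0.10, -0.13, -0.10 and -0.07). The numbers were therefore not taken as pairs. The replicate block gave 3 of the 10 genes higher, 2 higher and 3 lower in the wider pathway, and 2975 calls over all genes. For the ratios, exact permutation by sign flips within pairs cannot go below p = 0.125 and 3 mice against 4 not below 0.0571, so those p-values say nothing about stability.

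Signs of small, uncalled log2 fold changes turned. Plin4 was -0.13 in the 800s, -0.06 with mouse number series as a covariate and -0.13 to 0.26 with 1 mouse left out (-0.13 without Pcx L-/- replicate 2, -0.03, -0.08 and -0.05 without control replicates 1, 2 and 4). Given in the order library size alone, log2(FPKM + 0.1) and log2(FPKM + 1), the values were 0.029, 0.030 and 0.029 for Fitm2, 0.26, 0.27 and 0.26 for Rab18, 0.13, 0.13 and 0.12 for Bscl2, 0.21, 0.21 and 0.20 for Dgat1, 0.20, 0.24 and 0.17 for Acsl3, 0.19, 0.18 and 0.15 for Lipe, 0.024, 0.016 and 0.015 for Lipa, 0.23, 0.22 and 0.20 for Ddhd2, and 0.073, 0.072 and 0.072 for Creb3l3. The last of each was the same without the filter. Rab18 was 0.006 with the covariate and -0.055 to 0.024 with 1 mouse left out (0.011 without Pcx L-/- replicate 3, 0.024 without control replicate 2). Faf2 was -0.014 in the 800s. Acsl3 was 0.16 there and -0.177 to 0.152 with 1 mouse left out (0.152 without control replicate 2). The cause of these shifts was not tested. Depth limits Cidea, Plin1 and Pnpla3, which were too sparse to test.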
